A study of Oryza sativa Japonica Group with 22 samples.

Results

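Milkripe rice seeds of the line SAT were compared with those of the line CGS, which differ in the sulfur amino acid enzyme that was introduced. The comparison takes the 3 libraries labelled SAT and the 5 libraries labelled CGS, 8 of the 22 samples of the series, chosen by the line label alone. Of the 38866 genes in the files, 26821 had enough counts to be tested. The line SAT expresses EcSAT, the serine acetyltransferase cysE of Escherichia coli with an Arabidopsis rbcS signal for the chloroplast. The line CGS expresses AtD-CGS, an Arabidopsis cystathionine gamma-synthase without feedback control, with a pea chloroplast transit peptide. Both transgenes are driven by the maize ubiquitin 1 promoter, were brought into the japonica line Taipei with Agrobacterium tumefaciens, and each of SAT and CGS is a single line, so the enzyme cannot be told apart from anything else that differs between these lines. Seeds of both were harvested 10 days after flowering, with RNA taken per panicle from whole seeds. Untransformed Taipei seeds (n = 4 libraries) served as the parental level. The crosses SATxSSA (n = 3) and CGSxSSA (n = 4) carry the same enzymes together with HaSSA, a sunflower albumin gene driven by the Bx17 wheat glutenin promoter, and SSA (n = 3) carries HaSSA alone. The crosses were made from SAT and CGS plants with pollen of SSA, so each inherits from the same single line. In each cross, descendants of a pair of segregants were combined.

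Plants take up sulfur as sulfate through transporters of the SULTR family and activate it with ATP sulfurylase (ATPS). The activated sulfate is reduced by APS reductase and sulfite reductase (SiR) to sulfide. Serine acetyltransferase (SAT) provides O-acetylserine (OAS), onto which OAS thiol-lyase (OASTL) places the sulfide to give cysteine. Cystathionine gamma-synthase (CGS) then takes cysteine towards methionine. OAS is also a signal in Arabidopsis, where a small set of genes known as the OAS cluster follows its level and responds to sulfur deficiency. EcSAT thus acts just before cysteine and AtD-CGS just after it, and the comparison asks how transcripts differ between seeds that carry an extra enzyme on either side. The genes of these pathways were named by the study, which worked on these same samples, so their directions are not independent evidence.

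Anti-strand counts in genes ranged from 34272893 to 37642924 in SAT (median 35601164) and from 32674435 to 37439828 in CGS (median 34890279). Levels below are CPM, read counts scaled to the library sizes normalized by TMM, of reads without molecular identifiers. CGS replicates 2 and 4 stood nearer to each other than any other pair of libraries of a line, with a chi-square per gene of 4.62 against 10.0 for the next pair, which is still more than sampling noise allows. The deviations of SAT replicate 3 from its line mean went with those of CGS replicates 2 and 4 (correlation across genes 0.47 and 0.46). Unmapped reads made up 0.895% ± 0.0271 (SD, n = 3) of reads in SAT and 0.710% ± 0.0342 (n = 5) in CGS, without overlap. Multimapping reads made up 13.3% ± 0.877 in SAT and 15.97% ± 1.16 in CGS. Both differences had an exact two-sided permutation p of 0.0357, the smallest that 56 divisions of the libraries allow, and 0.0714 after adjustment over 4 read shares. All 8 green tissue markers, 7 embryo and aleurone markers and 11 glutelins of lists written from general knowledge had counts in every library.

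The transgenes have no row in the files and gave no value here, and the rice genes for the same enzymes did not pass the test. The rice CGS gene Os03g0376100 stood at 42.2, 35.8 and 49.0 CPM in the SAT libraries and at 32.0, 48.2, 30.2, 47.7 and 41.1 CPM in the CGS libraries, so the lines overlapped. Its log2 difference, SAT minus CGS, was 0.09 with a 95% interval from -0.21 to 0.39. The rice SAT gene with the highest CPM, a scale without gene length, was Os03g0133900, which averaged 50.3 CPM ± 2.57 (SD, n = 3) in SAT and 53.9 CPM ± 1.43 (n = 5) in CGS, a log2 difference of -0.10 (95% interval from -0.26 to 0.06). Of the SAT and CGS genes of rice, 4 of 6 had enough counts for the test and 0 passed it in edgeR and in DESeq2, with 1 at an unadjusted p under 0.05.

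Across all genes, 905 differed between SAT and CGS at an adjusted p under 0.01 (3.37% of those tested, edgeR's quasi-likelihood test with Benjamini-Hochberg adjustment). Of these, 355 were higher in SAT (1.32%) and 550 were lower in SAT (2.05%). Most differences were small, since the median size was 0.86 on the log2 scale among those higher in SAT and 0.64 among those lower. More than 2-fold differences were found for 147 of the genes higher in SAT and for 137 of those lower, and more than 16-fold for 23 and 18. The SAT and CGS libraries did not overlap for 889 of the 905 called genes, and for 3830 of all 26821 genes tested (14.3%). The calls were made on these same libraries, so the count of 889 is a description and adds no support to them. In 92 called genes the line with the higher level reached at least 100 CPM. Both lines also departed from Taipei, with 185 genes called in SAT minus Taipei (0.69%) and 991 in CGS minus Taipei (3.69%), comparisons that share their Taipei libraries and each a line with SAT minus CGS. The Taipei level was nearer to SAT than to CGS for 412 of the 550 genes lower in SAT and for 201 of the 355 genes higher in SAT. The number of calls depended on the SAT libraries, of which there are only 3: without SAT replicate 1, 2 or 3 it was 473, 492 and 574.

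**Figure D1:**
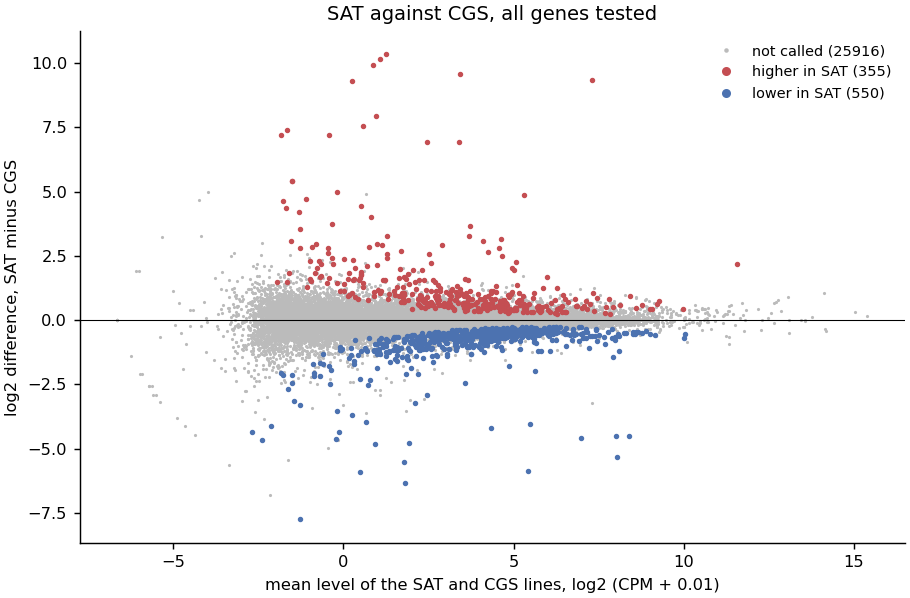
Log2 difference, SAT minus CGS, of each gene tested (vertical axis) against its mean level in the pair of lines as log2 (CPM + 0.01) (horizontal axis). Red points are the 355 genes called higher in SAT, blue points the 550 called lower, and grey points were not called. Large differences in either direction lie mostly among genes of low to middle level.

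Among genes of the OAS cluster, SDI2 and SHM1 were lower in SAT. SDI2 (Os05g0506000), the rice ortholog of a gene induced by sulfur deficiency in Arabidopsis, stood at 11.5, 8.62 and 11.3 CPM in the SAT libraries. In CGS it stood at 22.0, 22.7, 23.8, 22.6 and 22.6 CPM, and in Taipei at 28.4, 17.5, 19.0 and 22.3 CPM. Each SAT library was thus below every CGS and Taipei library, while CGS and Taipei overlapped. The level in CGS was 2.18 times that in SAT, a log2 difference, SAT minus CGS, of -1.12 (adjusted p = 0.00290 in edgeR, standard error 0.218). Its call needed all SAT libraries, with adjusted p-values of 0.0119, 0.0291 and 0.0122 without SAT replicate 1, 2 or 3, and it was 0.0127 without CGS replicates 2 and 4 together.

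SHM1 (Os03g0738400) encodes a serine hydroxymethyltransferase, an enzyme that interconverts serine and glycine. It was read at 224, 202 and 194 CPM in SAT and at 268, 247, 252, 267 and 285 CPM in CGS, a log2 difference of -0.35 (adjusted p = 0.00370 in edgeR, standard error 0.0727). Here it was CGS that stood apart, as Taipei at 204 CPM ± 12.5 (SD, n = 4) was at the level of SAT. The log2 difference of CGS minus Taipei was 0.37 (adjusted p = 0.00120 from edgeR) and that of SAT minus Taipei was 0.02. The call was lost without SAT replicate 2, SAT replicate 3 or CGS replicate 5 (adjusted p = 0.0279, 0.0301 and 0.0118 from edgeR), in the fit of the 12 libraries without HaSSA (0.0156) and in that of only the SAT and CGS libraries (0.0435).

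SDI1 (Os03g0165900), the other SDI gene, had the largest log2 difference of the cluster but was read at low and scattered levels. Its SAT libraries had 0.703, 0.388 and 0.366 CPM and its CGS libraries 3.10, 3.77, 1.26, 5.73 and 2.49 CPM, with no overlap. The log2 difference of -2.74 had a standard error of 1.01 and an adjusted p of 0.109 in edgeR, and DESeq2 called it (adjusted p = 0.00179). Taipei libraries spread from 0.734 to 4.03 CPM and overlapped with CGS. ChaCL2 (Os04g0448600), a ChaC-like gene of a family that degrades glutathione, had the opposite sign, with 18.3, 17.0 and 19.3 CPM in SAT and 12.1, 15.5, 11.3, 15.02 and 14.2 CPM in CGS. Its log2 difference of 0.42 (standard error 0.102) had an adjusted p of 0.0137 from edgeR, which fell to 0.00828 without CGS replicate 2 and to 0.00415 without CGS replicates 2 and 4. The LSU genes, whose Arabidopsis relatives respond to low sulfur, overlapped between SAT and CGS. LSU1 (Os10g0509600) and LSU2 (Os02g0129800) had log2 differences of 0.06 and 0.05 (95% intervals from -1.09 to 1.20 and from -0.88 to 0.99). Of the 15 OAS-cluster orthologs, 14 were tested, 2 were lower in SAT and 0 were higher, 5 and 1 had an unadjusted p under 0.05, and the median log2 difference was -0.08. Over all 26821 genes tested, 550 were called lower and 355 higher, 3169 and 2708 had an unadjusted p under 0.05, and the median was -0.01. DESeq2 called 3 lower and 1 higher.

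**Figure D2:**
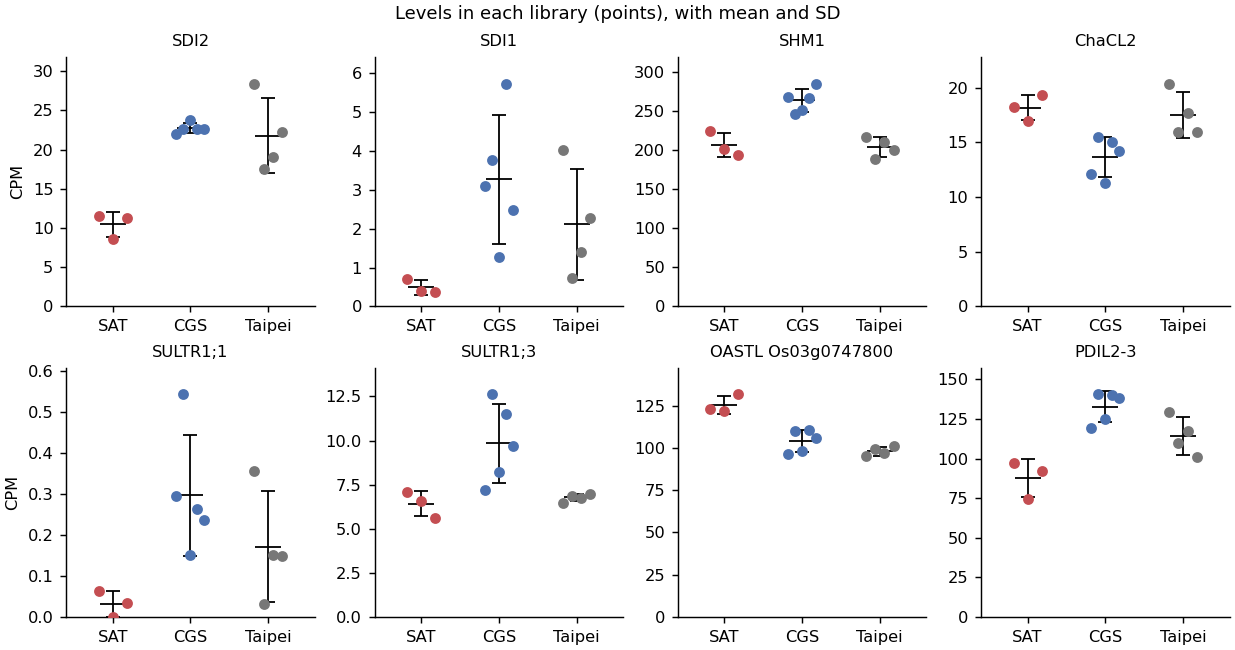
Levels of 8 named genes in CPM (vertical axes, each starting at 0) in the libraries of SAT, CGS and Taipei. Points are libraries and black marks are the mean with the SD. The SAT points of SDI2 and PDIL2-3 lie below all CGS and Taipei points, while for SHM1 the SAT and Taipei points lie together below CGS.

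None of the 13 sulfate transporter genes passed the test in edgeR, 3 were lower in SAT at an unadjusted p under 0.05, and DESeq2 called 1 lower. The median log2 difference of the list was -0.06. SULTR1;3 (Os08g0406400), of the group of high-affinity uptake transporters, was the nearest to the threshold. It stood at 7.06, 6.59 and 5.63 CPM in SAT and at 7.18, 12.6, 8.22, 11.5 and 9.71 CPM in CGS, a log2 difference of -0.61 (adjusted p = 0.0192 in edgeR, standard error 0.158). CGS replicate 1 was near the SAT libraries, and without it the adjusted p was 0.00503. Taipei at 6.77 CPM ± 0.226 (SD, n = 4) was close to SAT.

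SULTR1;1 (Os03g0195800), a root uptake transporter that rises under sulfur starvation in plants, was almost unread in these seeds. It had 2, 0 and 1 counts in the SAT libraries and 10, 16, 5, 8 and 9 counts in the CGS libraries. The counts did not overlap, but the fitted log2 difference of -3.10 (standard error 1.46) rests on few reads and had an adjusted p of 0.221 from edgeR. SULTR4;1 (Os09g0240500), of the group that exports sulfate from the vacuole, averaged 25.7 CPM ± 1.66 (SD, n = 3) in SAT and 31.1 CPM ± 3.27 (n = 5) in CGS, a log2 difference of -0.28 (95% interval from -0.79 to 0.23). SULTR3;5 (Os01g0593700), a transporter of the SULTR3 group, stood at 150, 124 and 107 CPM there and between 42.5 and 162 CPM in CGS (log2 difference 0.54, 95% interval from -0.38 to 1.45).

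Enzymes of sulfate assimilation showed small differences, of which 0 of 11 passed the test in edgeR. At an unadjusted p under 0.05, 3 were lower and 1 was higher in SAT, DESeq2 called the higher one, and the median log2 difference was -0.14. That gene was OASTL Os03g0747800, which stood at 123, 122 and 132 CPM in SAT and at 96.5, 110, 98.1, 111 and 106 CPM in CGS, without overlap. The log2 difference was 0.27 (adjusted p = 0.0119 in edgeR, standard error 0.0642, 0.00732 without CGS replicates 2 and 4). SAT minus Taipei for this gene was 0.35 (adjusted p = 0.00536 from edgeR). The transcript of this cysteine-forming enzyme was read at a higher level in every SAT library than in any Taipei or CGS library. Another OASTL gene, Os12g0625000, had the opposite sign, with 31.1, 30.8 and 34.5 CPM in SAT and from 35.9 to 46.2 CPM in CGS (log2 difference -0.38, adjusted p = 0.247 from edgeR). APRL1 (Os07g0509800), an APS reductase-like gene, stood at 71.1, 39.1 and 64.2 CPM in SAT and at 97.8, 111, 89.3, 100 and 72.6 CPM in CGS. Its log2 difference was -0.70 (adjusted p = 0.147 in edgeR, standard error 0.281), and Taipei ranged from 60.4 to 155 CPM. APS kinase (APK, Os07g0573100), which diverts activated sulfate from reduction, averaged 49.6 CPM ± 2.51 in SAT and 58.2 CPM ± 2.52 in CGS without overlap (log2 difference -0.23, adjusted p = 0.0546 from edgeR). ATPS (Os03g0743900) and SiR (Os05g0503300) had log2 differences of -0.18 and -0.22 (95% intervals from -0.57 to 0.22 and from -0.43 to -0.01).

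Homocysteine methyltransferases, which form methionine from S-methylmethionine, did not pass the test (0 of 4 in edgeR and in DESeq2, and 0 at an unadjusted p under 0.05). HMT1 (Os03g0221200) stood at 3.13, 2.33 and 3.70 CPM in SAT and at 5.85, 7.28, 4.37, 5.47 and 7.71 CPM in CGS, without overlap. Its log2 difference of -1.02 had a 95% interval from -2.12 to 0.09. HMT2 (Os12g0607000) overlapped between the lines, at 248 CPM ± 46.1 in SAT and 263 CPM ± 24.7 in CGS. Lists from general knowledge of genes of methionine and S-adenosylmethionine synthesis (6 tested, median log2 difference -0.08) and of glutathione synthesis (6 tested, median -0.03) had 0 calls in edgeR and in DESeq2, with 0 and 1 genes at an unadjusted p under 0.05.

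Seed storage proteins are folded in the endoplasmic reticulum (ER) with the help of chaperones such as BiP and of protein disulfide isomerases (PDI), which form the disulfide bonds between cysteines. Of the 24 ER chaperone genes named by the study, 1 was lower in SAT in edgeR and in DESeq2 and 0 were higher. The estimates of 22 were below 0 and 7 had an unadjusted p under 0.05, with a median log2 difference of -0.15. Over all 26821 genes tested, 13831 estimates were below 0, 3169 genes were lower in SAT at an unadjusted p under 0.05, and 2.05% were called lower. The gene that passed was PDIL2-3 (Os09g0451500), a PDI-like gene. It stood at 97.1, 74.3 and 92.3 CPM in SAT, at 120, 141, 125, 140 and 138 CPM in CGS, and at 129, 110, 118 and 101 CPM in Taipei. Its SAT libraries lay below those of both other lines, with a log2 difference, SAT minus CGS, of -0.59 (adjusted p = 0.00254 in edgeR, standard error 0.117). SAT minus Taipei was -0.38 and CGS minus Taipei was 0.21 (adjusted p = 0.104 and 0.220 from edgeR). The adjusted p was 0.0313 without SAT replicate 2, 0.0157 without CGS replicates 2 and 4 together, and 0.0111 in the fit of only the SAT and CGS libraries.

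BiP1 (Os02g0115900), the main ER Hsp70 of the seed, overlapped between the lines, at 587, 372 and 672 CPM in SAT and 575, 878, 625, 875 and 605 CPM in CGS. The high values of CGS were those of replicates 2 and 4, and the log2 difference was -0.39 (adjusted p = 0.335 in edgeR, standard error 0.226). PDIL1-1 (Os11g0199200) overlapped likewise, from 856 to 1894 CPM in SAT, with replicate 3 highest, and from 1016 to 2126 CPM in CGS. PDIL1-5 (Os06g0163400), a further PDI-like gene, stood at 17.5, 20.5 and 19.4 CPM in SAT and from 21.4 to 30.2 CPM in CGS (log2 difference -0.43, adjusted p = 0.0232 from edgeR, 0.00771 without CGS replicate 3). BiP4 (Os05g0428600), which is nearly silent without ER stress, had 0.580 CPM ± 0.2997 in SAT and 0.962 CPM ± 0.416 in CGS. A list of 3 genes of the unfolded protein response had a median log2 difference of -0.03 and 0 calls in edgeR and in DESeq2, with 0 at an unadjusted p under 0.05.

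**Figure D3:**
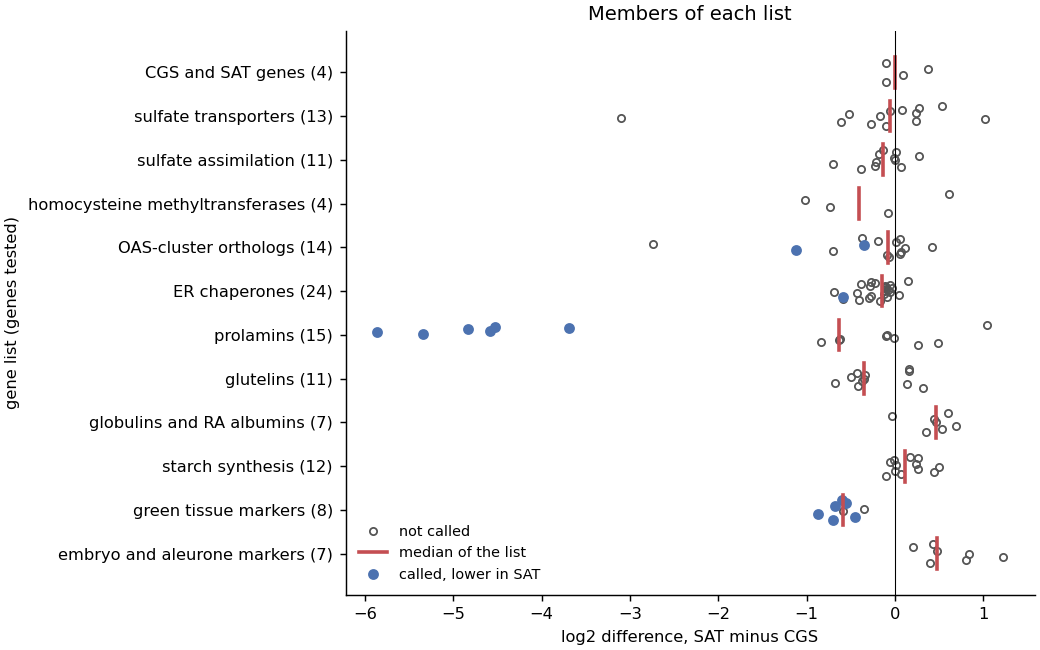
Log2 difference, SAT minus CGS (horizontal axis), of each tested member of 12 gene lists, with the number tested in brackets. Filled blue points were called lower in SAT, open points were not called, and red bars are the list medians. The called prolamins lie between -5.87 and -3.69, far from the other members, and the green tissue markers lie together below 0.

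Prolamins, the storage proteins of ER-derived protein bodies, held the largest differences of any list. The list comes from general knowledge of rice identifiers, was not checked against an annotation, and covers near-identical genes of which only uniquely mapped reads were counted, so levels of single members are uncertain. Over all 26821 genes tested, 2.05% were called lower in SAT, 1.32% were called higher, and the median log2 difference was -0.01. Among all genes, 2708 were higher in SAT at an unadjusted p under 0.05. Of the 15 members of the prolamin list tested, 6 were lower in SAT and 0 higher, and the median log2 difference was -0.64. All 6 lie in a stretch of chromosome 5, and the 9 members elsewhere had 0 calls in edgeR, 1 higher in SAT at an unadjusted p under 0.05, and a median of -0.09 (range from -0.84 to 1.04). DESeq2 also called 6 of the list. Over the whole list the summed level was 51258 CPM ± 14951 (SD, n = 3) in SAT and 41664 CPM ± 9769 (n = 5) in CGS. The higher sum in SAT rests on the 1 member that was higher at an unadjusted p under 0.05. That member averaged 24109 CPM in SAT and 11706 CPM in CGS (adjusted p = 0.157 in edgeR), and without it the sum was not higher in SAT. The count of 6 was 3 without SAT replicate 1, 4 without SAT replicate 2, SAT replicate 3 or CGS replicate 4, and 4 without CGS replicates 2 and 4 together, when the list median was -0.15.

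The stretch on chromosome 5 was also the longest run of called genes when all genes tested were put in the order of their identifiers. In this run 7 consecutive genes, ending with Os05g0330600, were called, all lower in SAT without overlap, with log2 differences from -5.87 to -3.69 (adjusted p from 0.00106 to 0.00632, edgeR). Of the 7, 5 are in the prolamin list. Their summed level was 48.1, 6.12 and 81.4 CPM in the SAT libraries and 750, 1588, 945, 1448 and 592 CPM in the CGS libraries. Taipei libraries ranged from 380 to 760 CPM, so every SAT library lay below all Taipei libraries, and 3 of 5 CGS libraries lay above them. Os05g0330600 itself had 1.69, 0 and 2.80 CPM in SAT and 62.9, 120, 93.9, 112 and 33.6 CPM in CGS (log2 difference -5.87, standard error 0.985). For this gene SAT minus Taipei was -4.28 on the log2 scale (adjusted p = 0.0246 in edgeR). The stretch, whose end was chosen after its values were seen, goes on beyond the run, and 10 of its 14 tested genes were called lower in SAT. The 3 genes just before the run also had low levels in SAT, with log2 differences from -5.44 to -2.57, and were not called. These differences rest on few reads, with standard errors from 1.29 to 1.83. The genes averaged at most 1.58 CPM in CGS and 0.621 CPM in Taipei.

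The drop in SAT was also present in seeds with HaSSA, in libraries that the first comparison did not use but of crosses made from the same lines. There the summed level of the 7 genes was from 4.87 to 18.4 CPM in the SATxSSA libraries, against 536 to 3859 CPM in CGSxSSA and 1494 to 3111 CPM in SSA. All 7 genes were called lower in SATxSSA than in CGSxSSA (log2 differences from -12.56 to -6.25), and 0 of the 7 passed the edgeR test of the change in this difference between seeds with and without HaSSA. In Taipei and SSA the genes were thus read, and in both lines with EcSAT they were low. As SATxSSA descends from SAT, a trait of the SAT line and an effect of EcSAT cannot be told apart.

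**Figure D4:**
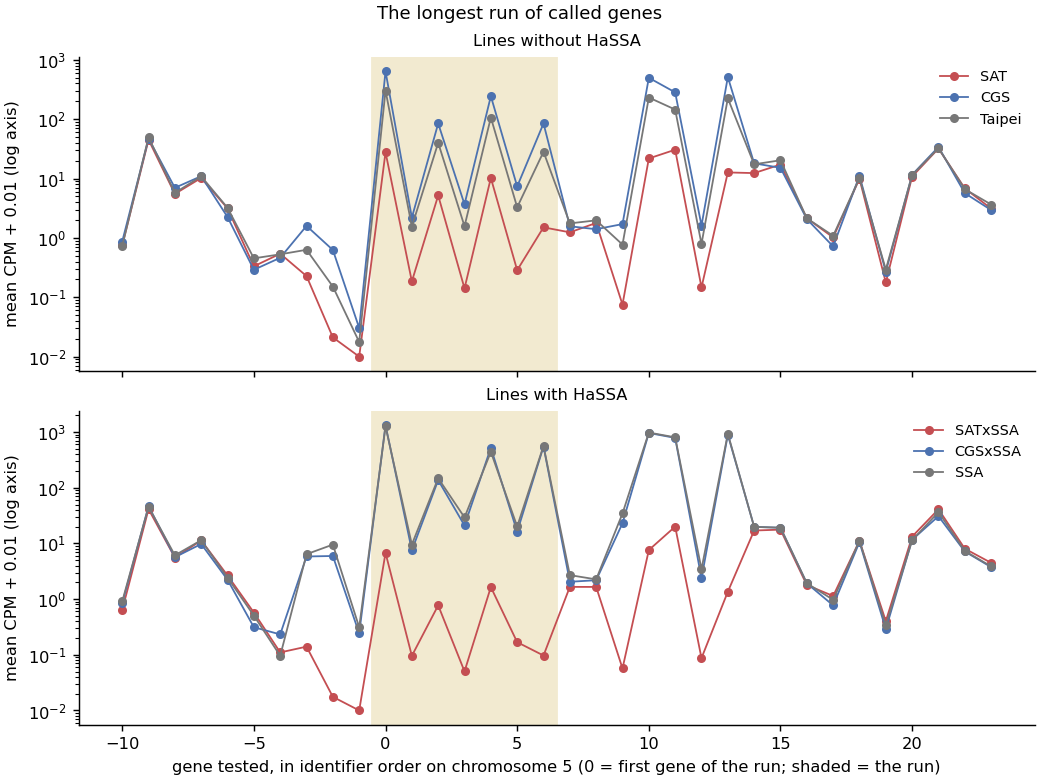
Mean CPM + 0.01 of each line (vertical axes, log scale) for genes tested on chromosome 5 in identifier order (horizontal axis, 0 is the first gene of the run, the run of 7 genes is shaded). The upper panel has the lines without HaSSA and the lower panel those with it. The SAT and SATxSSA lines fall well below the others within the run and at several genes after it. They also lie below at the 3 genes just before it, where levels without HaSSA are low in every line. Further out on either side they lie close to the others.

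Other storage and starch genes differed less. The 11 glutelins, the main storage proteins of rice, had a median log2 difference of -0.35 with 0 calls in edgeR and in DESeq2 and 2 lower at an unadjusted p under 0.05. Leaving out SAT replicate 2 or 3 moved that median to -0.12 and -0.58. The summed glutelin level was 138704 CPM ± 28257 (SD, n = 3) in SAT and 138449 CPM ± 17014 (n = 5) in CGS. The 7 globulins and RA albumins had a median of 0.46 and the 12 genes of starch synthesis one of 0.12, with 0 calls in both tools and 1 and 3 higher at an unadjusted p under 0.05.

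Green tissue markers were lower in SAT, while embryo and aleurone markers did not pass the test. Over all 26821 genes tested, 550 were called lower in SAT in edgeR (2.05%) and the median log2 difference was -0.01. Estimates above 0 numbered 12982 among all genes tested, and 2708 genes were higher in SAT at an unadjusted p under 0.05. Of 8 green tissue markers, genes of photosynthesis that are read in the green pericarp, 6 were lower in SAT in edgeR and 7 in DESeq2, and the median log2 difference was -0.59. Without SAT replicate 2 or 3, edgeR called 4. Their summed level was 4702, 4129 and 4493 CPM in SAT and 5962, 6543, 6166, 6142 and 6985 CPM in CGS. Taipei, from 4559 to 4960 CPM, was nearer to SAT. All 7 embryo and aleurone markers had estimates above 0, with a median of 0.47, 4 at an unadjusted p under 0.05 and 0 calls in edgeR and in DESeq2. They summed to 5196, 5070 and 4989 CPM in SAT and 3744, 3696, 5114, 3282 and 2640 CPM in CGS, where replicate 3 was as high as SAT. In SATxSSA minus CGSxSSA the medians were -0.18 for the green tissue markers and -0.62 for the embryo and aleurone markers, with 0 calls in edgeR. In whole seeds, fewer cells of a type and less RNA per cell cannot be told apart, and the part of tissue make-up in the differences of other genes was not tested.

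The genes with the largest differences included several that were read in one line and almost silent in the other. Os03g0115800 stood at 331, 352 and 268 CPM in SAT, from 0.296 to 0.843 CPM in CGS and from 0.227 to 1.27 CPM in Taipei (log2 difference, SAT minus CGS, 9.33, adjusted p = 1.44e-15 in edgeR, standard error 0.248). It averaged from 260 to 281 CPM in SSA, SATxSSA and CGSxSSA. It was therefore high in SAT and in all lines with HaSSA, CGSxSSA included. Os03g0629800 had the same pattern at a lower level, with 21.6, 25.5 and 16.6 CPM in SAT, at most 1 count in any CGS library, and 12.2 to 17.8 CPM on average in the lines with HaSSA, although 1 of the 4 CGSxSSA libraries had only 0.0613 CPM (log2 difference 9.57, 95% interval from 7.25 to 11.9). Os07g0442800 was read instead in both lines with AtD-CGS. It stood at 0.128, 0.0831 and 0.0333 CPM in SAT and at 6.05, 5.44, 9.69, 5.40 and 8.05 CPM in CGS, with 8.26 CPM ± 1.36 (SD, n = 4) in CGSxSSA and at most 0.172 CPM on average in Taipei, SSA and SATxSSA (log2 difference -6.34, adjusted p = 1.15e-09 in edgeR, standard error 0.388). The files pair none of these identifiers with a name.

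Among genes with under 3 counts in every library of a line and at least 5 CPM on average in the other, 1 was near absent in CGS and 0 in SAT. Called genes were spread over all 12 chromosomes, with from 2.42% to 3.92% of the genes tested per chromosome. Runs of at least 3 consecutive called genes numbered 9, and the one on chromosome 5 was the only run longer than 3. Among the 15 largest rises, 10 had a Taipei level nearer to SAT than to CGS, and among the 15 largest falls 12 had one nearer to CGS. Several of these falls are neighbours in the stretch of chromosome 5, so a single region is counted repeatedly. Of the 10 genes called there, 0 had a Taipei level nearer to SAT.

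The same pair of enzymes was also compared in seeds with HaSSA. SATxSSA was higher than CGSxSSA for 87 genes (0.324%) and lower for 157 (0.585%). Of the 905 genes called between SAT and CGS, 53 were called the same way with HaSSA, which is 5.86% of the 905 and 21.7% of the 244, and 3 were called the opposite way. Signs were shared by 61.4% of the 905 genes and by 48.9% of all genes tested. The median log2 difference of the genes higher in SAT was 0.86 without HaSSA and 0.04 with it, and that of the genes lower in SAT was -0.64 and -0.07. These genes were chosen by their call without HaSSA, so a smaller median in another comparison is given as a description. The change in the difference itself passed the edgeR test for 324 genes (1.21%), among them 93 of the 355 genes higher in SAT and 90 of the 550 lower. The change subtracts the same SAT minus CGS estimate by which the 355 and 550 genes were chosen. The counts of 93 and 90 are therefore also given as a description.

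The 30 genes called higher with EcSAT in both pairs had a median log2 difference, SAT minus CGS, of 1.52, and the 23 genes called lower in both had one of -4.05. Of these 23, 10 lie in the stretch of chromosome 5, and the median of the other 13 was -1.31. All 30 and 15 of the 23 are in none of the lists, and PDIL2-3 was among the 23, at 334 CPM ± 13.4 (SD, n = 3) in SATxSSA and 558 CPM ± 55.8 (n = 4) in CGSxSSA, a log2 difference of -0.74 (adjusted p = 0.00120 from edgeR). Its change between the pairs was -0.15 (95% interval from -0.49 to 0.19). SDI2 was another, with a log2 difference of -2.50 with HaSSA (8.69 CPM ± 0.438 against 49.3 CPM ± 15.7, adjusted p = 3.62e-06 from edgeR). SHM1 was not, since it averaged 215 and 216 CPM in the pair with HaSSA.

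Several genes of sulfur metabolism had larger estimates with HaSSA than without it, and the change itself passed the test for 1 of the genes named by the study. SDI1 averaged 0.371 CPM in SATxSSA and 198 CPM in CGSxSSA, a log2 difference of -9.09 (standard error 0.985) beside -2.74 without HaSSA. HMT1 had log2 differences of -3.26 and -1.02, APRL1 of -2.39 and -0.70, and SULTR4;1 of -1.89 and -0.28, each pair given with HaSSA first. The edgeR test of the change itself gave adjusted p-values of 0.0490 for SDI1, 0.0751 for HMT1, 0.0193 for APRL1, 0.0126 for SULTR4;1 and 0.0136 for SDI2, all above 0.01. LSU2 passed that test, since its log2 difference was 0.05 without HaSSA and -3.66 with it (change -3.72, standard error 0.651, adjusted p = 0.00353). It stood at 0.576 CPM ± 0.205 (SD, n = 3) in SATxSSA and 7.28 CPM ± 3.54 (n = 4) in CGSxSSA, beside 1.27 CPM ± 0.729 in SAT and 1.22 CPM ± 0.104 in CGS. Of the 14 OAS-cluster orthologs tested, 7 were lower in SATxSSA than in CGSxSSA, and of the 11 sulfate assimilation genes 4 were, where 157 of all 26821 genes were called lower in that pair. The genes APRL1, APRL3 and APRL4 are in both lists, so the counts of 7 and 4 are not separate. Whether these counts differ from those of the pair without HaSSA was not tested.

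**Figure D5:**
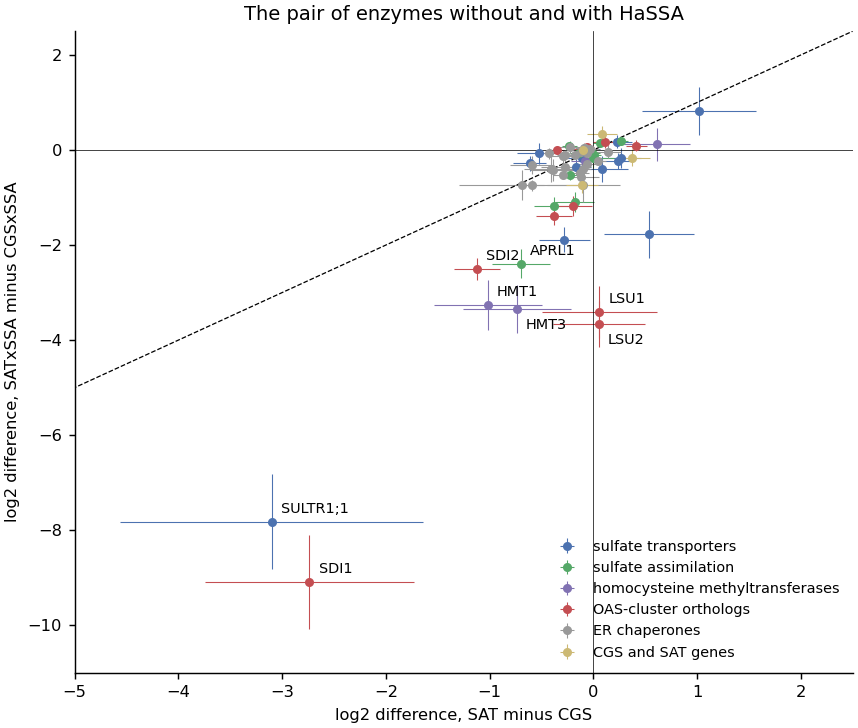
Log2 differences of the tested genes named by the study, SAT minus CGS (horizontal axis) and SATxSSA minus CGSxSSA (vertical axis), each point a gene with its standard errors. The dashed line marks equal differences. SDI1, SULTR1;1, HMT1, HMT3, LSU1, LSU2, APRL1 and SDI2 lie below the dashed line, while most other genes lie near 0 on both axes.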

How the data were processed

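Total RNA from milkripe seeds was depleted of rRNA by the authors and sequenced as strand-specific single-end libraries, which they mapped with STAR 2.7.1a to IRGSP-1.0. What they deposited are raw counts per gene, from reads with a single position only and not normalized. The anti-strand column, used by the authors, was taken. Rows of reads counted in no gene were left out of library sizes.

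All 22 libraries were fitted with the line as the only factor in edgeR 4.0.16 (R 4.3.3), with TMM, filterByExpr and the robust quasi-likelihood test. Tests were two-sided, Benjamini-Hochberg adjustment ran over 26821 genes, and a call needed an adjusted p under 0.01, the study's threshold. Standard errors are the log2 difference over the square root of F. The test was checked on simulated data. Libraries come from seeds of individual plants, harvested per panicle. The plants are of 1 line each for SAT and CGS and of a pair of combined segregants for each cross, so p-values cover the spread between these libraries. The alternatives were DESeq2 1.42.0, other normalizations, filters, fits and columns, a replicate block, and leaving out libraries.

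Named are the genes the study names by identifier and, from the 15 largest rises and falls with at least 5 CPM and no overlap, 2 each. The members, lists and tests were chosen with earlier results of these data known. Planned lists by gene description were not run, since the reference table matched 1 of the identifiers. For genes that the study does not name, no annotation was used here, so no position or sequence is given.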

Additional observations from a re-analysis of the deposited data

Results flagged for a closer look

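The difference between the enzymes changed with HaSSA beyond the adjusted threshold of 0.01 (edgeR) in 3 of the genes named. LSU2 (Os02g0129800) changed by -3.72 on the log2 scale, Os03g0629800 by -9.02 and Os03g0115800 by -9.33, each as the difference with HaSSA minus that without it. Os03g0629800 and Os03g0115800 were named by the size of their rise in SAT minus CGS. The change subtracts that same estimate, so for these genes it is given as a description. For the latter pair, the change lies in CGSxSSA, where both genes were read (Os03g0629800 in 3 of 4 libraries above 10 CPM, and at 0.0613 CPM in the other), while CGS alone had almost no reads of them.

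In the 5 CGS libraries, 1 library lay apart from the other 4 by Dixon's criterion for 5 features of 91 examined, and chance alone gives about 1 in 20. CGS replicate 3 was highest for the calreticulin gene CRT Os01g0895600 (38.1 CPM) and for HMT4 Os01g0772900 (4.997 CPM). CGS replicate 5 was lowest for SULTR5;1 Os01g0645900 (10.3 CPM) and for Os03g0629800 (0 CPM, with 1 count in each of the other libraries). CGS replicate 4 was highest for LSU1 Os10g0509600 (0.428 CPM).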

How the results depend on the processing

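The 905 calls (355 higher and 550 lower in SAT) became 1432 (599 and 833) with DESeq2, 2059 (900 and 1159) at a threshold of 0.05, and 352 (155 and 197) in a fit of only the SAT and CGS libraries, which has fewer residual degrees of freedom. They numbered 347 (172 and 175) without SAT replicate 3 and CGS replicates 2 and 4 together, a setting chosen after seeing the data. Without each library in turn they ranged from 473 to 1041 (184 to 446 higher and 289 to 595 lower). With the replicate block there were 468 (186 and 282). Same-numbered SAT and CGS libraries did not deviate together (correlations 0.01, -0.46 and -0.42), so the numbers pair no samples. The block and DESeq2 gave 135 and 636 in place of 244 for SATxSSA minus CGSxSSA, and 91 and 1152 in place of 324 for the change with HaSSA. Under 10 counts as the limit, 2 genes were near absent in SAT and 3 in CGS.

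No call of a named gene reversed its sign under any setting. The difference in reads without a feature, 0.147 percentage points, took values from -0.244 to 0.520 without each library, and that in ambiguous reads, -0.00168, was 0.361 in the unstranded column; neither passed the test. Of the 905 calls, RLE factors kept 886, DESeq2 900, the replicate block 463, leaving out 1 library from 457 to 803, and the fit of only the SAT and CGS libraries 328. With the replicate block the adjusted p (edgeR) was 0.0170 for SDI2, 0.0202 for SHM1 and 0.0145 for PDIL2-3. Among all genes named or examined by the naming rule, the block lost 8 calls and the fit of only the SAT and CGS libraries 14. Genes of low counts such as SULTR1;1 are limited by depth.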
